A study of Mus musculus with 4 samples.

Results

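The genes described here are 37 dioxygenases that use 2-oxoglutarate, chosen as a list of symbols: the JmjC-domain proteins, the prolyl and lysyl hydroxylases, the AlkB family and relatives, without the TET enzymes and without X-linked members. All 37 symbols were found among the 27998 features of the count tables. Marrow cells of 4 chimeric mice were sequenced one by one, 2 mice with Idh1-WT and 2 with Idh1-R132H marrow, in 1 library per mouse. In the donors, heterozygous Idh1-R132H and an EYFP reporter had been recombined by tamoxifen given for 5 days. Marrow was taken 2 weeks later, and its EYFP+ lineage-negative cells were transplanted into fully irradiated recipients with no supporting marrow. The chimeric marrow was harvested 16 weeks after transplantation. From each mouse, 4000 cells were sorted from each of 3 EYFP+ populations, CD45.1+ total cells, LSK (Lin- Sca1+ cKit+) and LK (Lin- cKit+), into 1 tube. The cells therefore do not show the natural proportions of marrow. The driver of recombination and the genotype of the Idh1-WT donors beyond that name are not given in the sources used here, nor is it stated whether the mice of a group received marrow from separate donors. P-values measure the spread between these mice only.

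These enzymes couple the oxidation of 2-oxoglutarate to succinate with the hydroxylation of a substrate, using iron and molecular oxygen. In the JmjC demethylases and the AlkB proteins, hydroxylation of a methyl group releases it from a histone, a nucleic acid or another protein. In the prolyl and lysyl hydroxylases the hydroxyl group stays on the substrate, as in the marking of hypoxia-inducible factor for degradation or the maturation of collagen. The R132H form of IDH1 makes 2-hydroxyglutarate, a structural relative of 2-oxoglutarate that can compete with it in several of these enzymes. The libraries measured transcripts, not enzyme activity or any of the marks that the enzymes remove.

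The 4 libraries held between 40364701 and 56353466 UMIs (unique molecular identifiers, each counting 1 captured transcript). After filters, 16280 cells remained, between 3505 and 4503 per library, with median counts of 7228 to 8707 UMIs. Cells were clustered without the 37 genes, and clusters were called "-like" from fixed markers, which gave 15 classes with enough cells in every library. For example, the 13 neutrophil precursor markers took 149300 to 156900 CPM (counts per 1e+06 UMIs of the class) in neutrophil precursor-like cells and 2434 to 2824 CPM in granulocyte-monocyte progenitor-like cells. Clusters with 1583 and 1251 cells kept no class name and are called by their leading genes, the Fam64a Psrc1 cluster and the Cpa3 Ccl9 cluster. The libraries Idh1-WT 1 and Idh1-R132H 1 shared 345 cell barcodes, 8.98% of the smaller library, against 13 to 33 in the other pairs. Of these, 301 lay in a cluster of low UMI counts of Idh1-WT 1 that entered no test, and 43 lay in its tested classes. Calls among the 37 genes are given below with all cells and without the 894 cells that carried a shared barcode. The mice also differed in cell sex: in granulocyte-monocyte progenitor-like cells, the share of cells with UMIs of Y-linked genes but not Xist was 6.85% and 21.0% for the Idh1-WT mice, and the Idh1-R132H mice had 32.0% and 39.5%. The share with Xist but no Y-linked UMIs was 77.66% and 59.45% for Idh1-WT and 52.2% and 42.03% for Idh1-R132H. Every library thus held both kinds of cell and need not stem from 1 donor.

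Levels below are CPM, the UMIs of a gene scaled to 1e+06 UMIs of all genes in the same class and library, given per library in the order Idh1-WT 1, Idh1-WT 2, Idh1-R132H 1, Idh1-R132H 2, or as mean ± SD over the 4 libraries. The summed level of the 37 genes had its highest mean in stem and multipotent progenitor-like cells (HSPC-like), at 717 ± 13.9 CPM. The next means were 678 ± 35.2 CPM in basophil and mast progenitor-like, 675 ± 46.9 in lymphoid-primed progenitor-like and 669 ± 35.2 in mature B-like cells. These overlapped the leading class: basophil and mast progenitor-like cells exceeded HSPC-like cells in Idh1-R132H 1 (724 and 717 CPM), and lymphoid-primed progenitor-like cells did in Idh1-R132H 2 (735 and 732 CPM). The sum was 661 ± 17.1 CPM in erythroid progenitor-like, 589 ± 16.5 in granulocyte-monocyte progenitor-like (GMP-like), 568 ± 20.9 in monocyte-like and 503 ± 18.4 in neutrophil-like cells. As CPM, neutrophil precursor-like cells had the lowest sum, 322 ± 9.11, and their libraries lay below every library of the other 14 classes. Single genes reached their lowest mean in neutrophil-like cells for 14 of the 37 genes and in neutrophil precursor-like cells for 9. The highest mean was spread over 12 of the 15 classes, with 5 genes each in erythroid progenitor-like and mature B-like cells and 4 each in neutrophil-like and T and NK-like cells. In only 5 genes, Kdm6b, Plod3, Egln3, Egln2 and Phyh, did all 4 libraries of the highest class lie above all 4 of the next one. For the other 32 the ranges of the 2 leading classes overlapped, which can happen even when every mouse has the same order. P4ha2, 1 of the 2 catalytic procollagen prolyl hydroxylase genes in the list, had 31 UMIs in all cells together and passed no filter. Plod2, a lysyl hydroxylase, had 279 UMIs and its highest level, 4.72 ± 0.969 CPM, in HSPC-like cells.

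**Figure D1:**
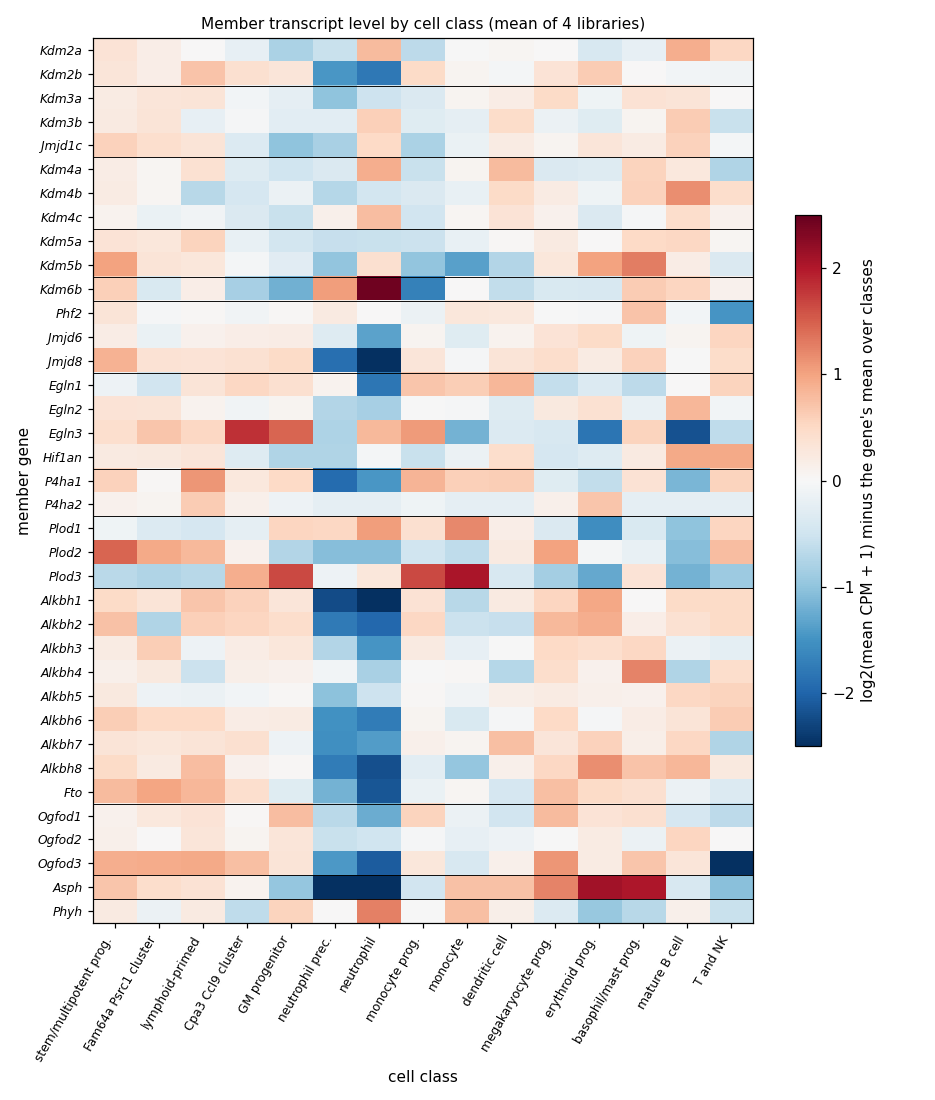
Levels of the 37 genes (rows, by role) in 15 cell classes (columns), coloured by log2(mean CPM + 1) over 4 libraries minus the gene's own mean over the classes. Kdm6b stands out in neutrophil-like cells (106 CPM), Plod3 in monocyte-like cells (73.1 CPM) and Asph in erythroid progenitor-like cells (42.5 CPM).

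Pairs of classes were compared within libraries with a quasi-likelihood test over all genes, at a false discovery rate of 0.05. A rise or fall is the second class against the first, and not every pair is a direct step of development. From HSPC-like to GMP-like cells, 13 of 36 genes tested rose and 12 fell, against 37% and 40.1% of all genes tested (77.1% in all). From GMP-like to neutrophil precursor-like cells, 12 of 35 rose and 13 fell, against 36.4% and 36.5% of all genes (72.9%). From neutrophil precursor-like to neutrophil-like cells, 7 rose and 1 fell of the 15 genes that passed the filter on low counts, against 30.1% and 29.9% (60%). From GMP-like to monocyte-like cells, 7 rose and 12 fell of 35, against 33.6% and 32.9% (66.5%). From HSPC-like to erythroid progenitor-like cells, 7 rose and 12 fell of 35, against 32.6% and 37.7% (70.3%). From monocyte-like to neutrophil-like cells, 7 rose and 4 fell of 19, against 33% and 36.2% (69.2%). Most genes tested were called in each pair, and the share among the listed genes was near or below that of all genes. The genes left out of the comparisons with neutrophil-like cells were those with few UMIs there, so the 15 and 19 tested are not a picture of the whole list. Without the cells with shared barcodes the calls came to 23, 24, 8, 19, 17 and 10 in the same order.

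The direction of a difference between classes depended on the scale for many of these genes. The tests use TMM factors, which set the bulk of genes to a difference near 0, while CPM divides by all UMIs, of which a few abundant granule and protease transcripts take a large part in GMP-like and neutrophil precursor-like cells. With library totals in place of TMM, the median log2 difference of all genes moved from -0.05 to -0.38 from HSPC-like to GMP-like cells, from -0.03 to -0.88 from GMP-like to neutrophil precursor-like cells and from -0.16 to -1.17 from monocyte-like to neutrophil-like cells. The calls among the 37 genes then split into 6 higher and 24 lower, 2 higher and 22 lower, and 7 higher and 9 lower. Over all genes called, the share that rose moved from 47.9% to 27.6%, from 49.9% to 20.1% and from 47.7% to 19.6%. In the other 3 pairs the splits were 7 and 1, 8 and 12, and 6 and 16. The summed levels and the order of classes given above are CPM and were not computed on the TMM scale. The highest and the lowest sum therefore hold for CPM only. With TMM, the median log2 difference of the tested genes of the list was -0.08 from HSPC-like to GMP-like cells. It was -0.003 from GMP-like to neutrophil precursor-like cells. Log2 differences below are on the TMM scale unless library totals are named, and each member named as having risen or fallen kept its direction on both scales except where stated. A call can still be gained or lost with library totals.

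**Figure D2:**
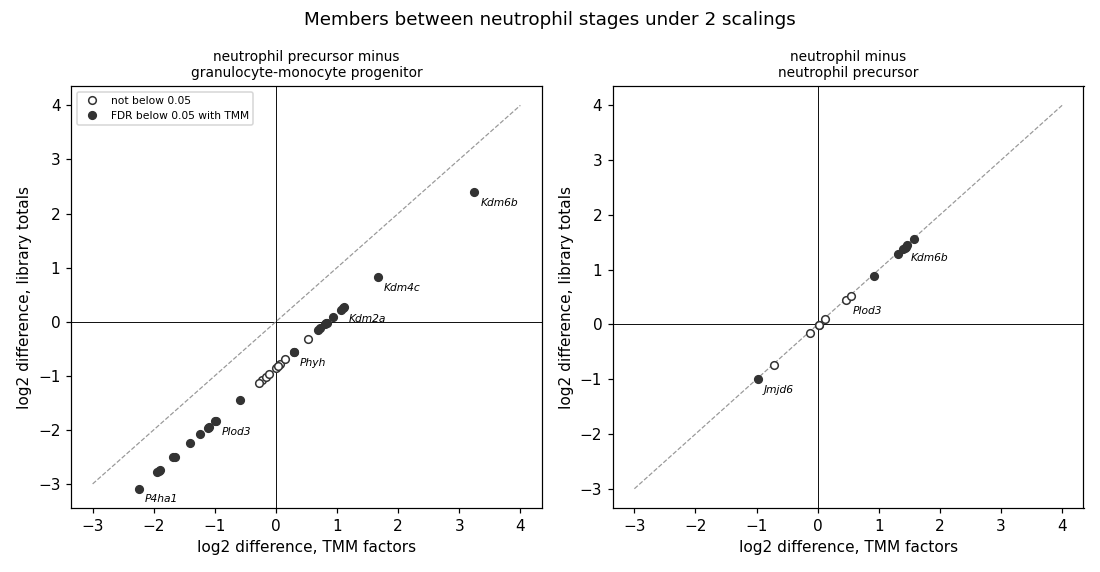
Log2 difference of each tested gene of the list with TMM factors (x axis) and with library totals (y axis), from GMP-like to neutrophil precursor-like cells and from neutrophil precursor-like to neutrophil-like cells, with the diagonal of equal values; filled points passed the test with TMM. In the first panel all points lie below the diagonal, and genes such as Phyh (0.29 and -0.56) change sign, whereas Kdm6b (3.24 and 2.39) and Alkbh1 (-1.91 and -2.76) do not.

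Among the demethylases, Kdm6b had the widest course. It removes methyl groups from lysine 27 of histone H3, a mark of Polycomb repression, and lies on chr11:69398508-69413675 (GRCm38, minus strand). HSPC-like cells had 26.3, 34.4, 29.3 and 26.8 CPM and GMP-like cells 5.88, 7.90, 8.53 and 8.33 CPM. Neutrophil precursor-like cells had 41.0, 40.9, 38.8 and 39.5 CPM, and neutrophil-like cells 117, 87.2, 123 and 96.4 CPM. The libraries of these 4 classes did not overlap, so that Kdm6b was low in GMP-like cells and higher at each step of the neutrophil branch. Its log2 difference was -1.59 (SE 0.10, adjusted p = 2.226e-20) from HSPC-like to GMP-like cells, 3.24 (SE 0.14, adjusted p = 1.125e-36) to neutrophil precursor-like and 1.43 (SE 0.14, adjusted p = 2.96e-22) on to neutrophil-like cells. Monocyte-like cells had 16.9, 19.97, 18.7 and 20.7 CPM, above GMP-like and below both neutrophil classes. Neutrophil-like exceeded monocyte-like cells by 3.45 (SE 0.18, adjusted p = 8.422e-27), or 2.44 with library totals. With free RNA subtracted the step into neutrophil precursor-like cells was 3.33 and the step into neutrophil-like cells 1.57. The large rise into neutrophil precursor-like cells lies outside the rule for named genes because of the gene's low mean level in that pair, and it was singled out after its values were seen.

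The immediate early and dissociation list of 14 genes (Fos, Jun, Dusp1 and others that answer stimulation or tissue handling within minutes) moved with Kdm6b. It had 10 of 11 tested genes higher from neutrophil precursor-like to neutrophil-like cells (median log2 difference 2.08) and 9 higher and 2 lower of 13 from GMP-like to neutrophil precursor-like cells (median 1.10; 6 and 5 with library totals, median 0.25). From GMP-like to monocyte-like cells 13 of 14 rose (median 1.57), and from HSPC-like to GMP-like cells 11 of 13 fell (median -1.62). The part of this list in the Kdm6b differences was not tested. The antisense gene Kdm6bos, which overlaps Kdm6b exons, had no more than 1 UMI in any class.

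**Figure D3:**
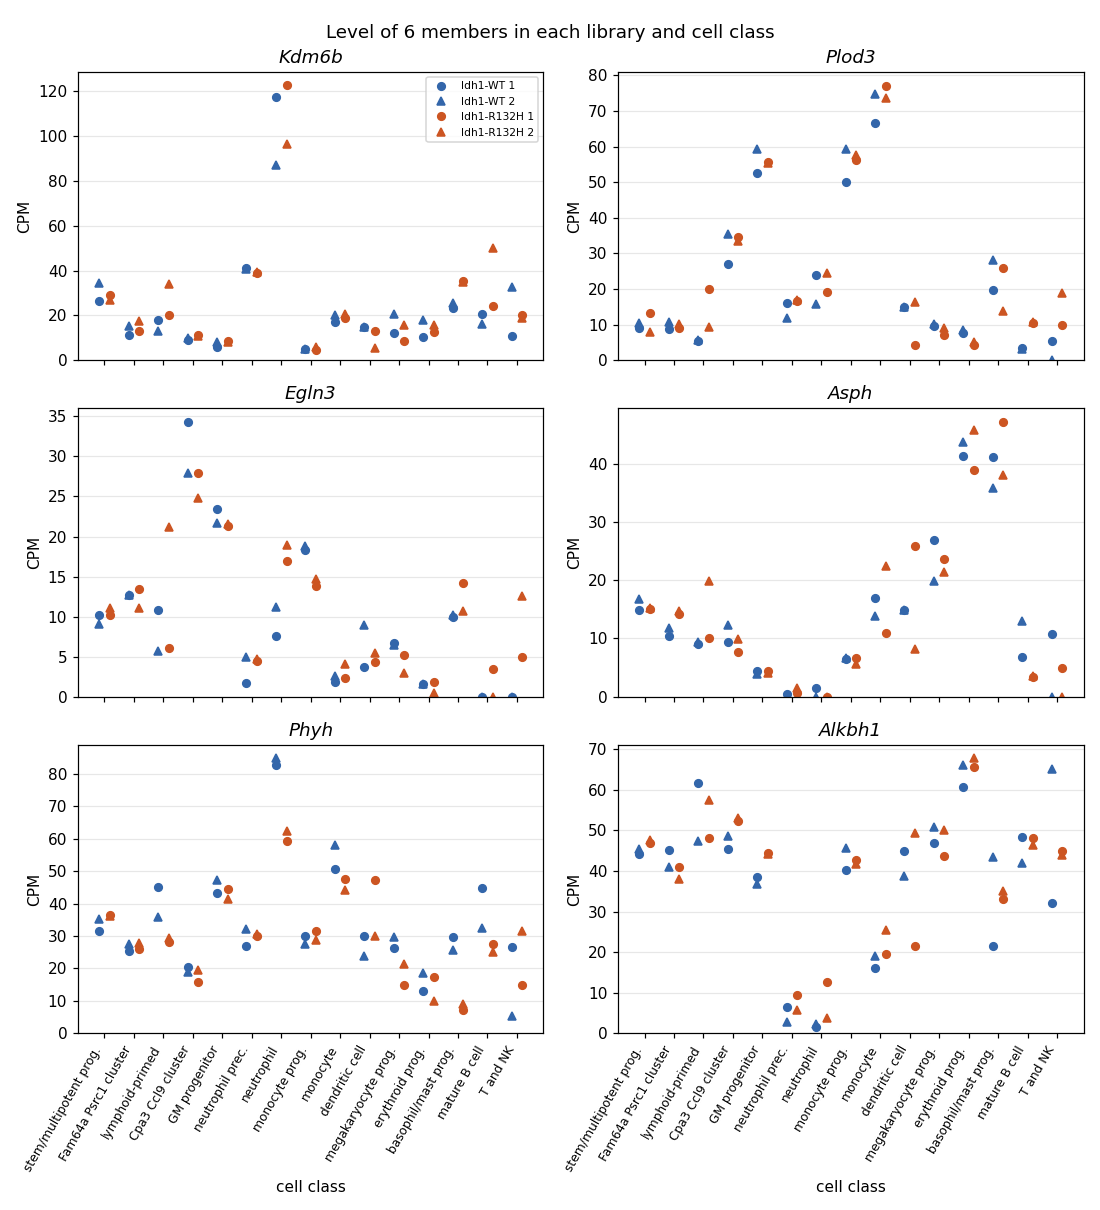
CPM of Kdm6b, Plod3, Egln3, Asph, Phyh and Alkbh1 in 15 classes (x axis), 1 point per library and colour by genotype. Kdm6b peaks in neutrophil-like cells, Plod3 in monocyte-like, monocyte progenitor-like and GMP-like cells, and Alkbh1 falls to 6.15 ± 2.79 CPM in neutrophil precursor-like cells. In neutrophil-like cells the Kdm6b points of Idh1-R132H and Idh1-WT overlap (87.2 to 123 CPM).

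Other histone demethylases were lower in GMP-like than in HSPC-like cells. Jmjd1c, a relative of the KDM3 enzymes, had 41.9, 35.2, 35.5 and 37.2 CPM in HSPC-like and 11.1, 12.3, 12.2 and 11.9 CPM in GMP-like cells. It fell by 1.34 on the log2 scale (SE 0.089, adjusted p = 4.546e-20), with no overlap between the classes. Kdm5b, which acts on methylated lysine 4 of histone H3, had 32.0, 36.3, 35.7 and 35.0 CPM in HSPC-like and 13.2, 12.99, 14.1 and 13.99 CPM in GMP-like cells, and fell by 1.02 (SE 0.086, adjusted p = 4.676e-16). Kdm2a (-0.86), Kdm5a (-0.50), Kdm4a (-0.43) and Kdm4c (-0.42) fell as well. Kdm3a, Kdm3b and Kdm4b, with -0.17, -0.19 and -0.10, did not pass on the TMM scale but were called lower with library totals (-0.50, -0.52 and -0.43). Kdm2b, which brings a Polycomb complex to CpG islands, was called higher by 0.33 with TMM, but its level was 28.1 ± 2.08 CPM in HSPC-like and 28.1 ± 1.84 CPM in GMP-like cells, and with library totals its log2 difference was -0.004 (adjusted p = 0.967).

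Several of these genes were higher again along the neutrophil branch. From GMP-like to neutrophil precursor-like cells Kdm4c (1.67), Jmjd1c (1.06), Kdm4a (0.94) and Kdm5a (0.73) were called higher with TMM. With library totals Kdm4c kept its call (0.83, adjusted p = 0.003283). Jmjd1c (0.21), Kdm4a (0.09) and Kdm5a (-0.12) did not pass on that scale. Further rises were called from neutrophil precursor-like to neutrophil-like cells. Kdm2a, a demethylase of lysine 36 of histone H3, had 12.2, 13.6, 14.0 and 12.0 CPM in neutrophil precursor-like and 45.1, 26.8, 33.9 and 32.1 CPM in neutrophil-like cells, a rise of 1.47 (SE 0.24, adjusted p = 5.431e-09). Jmjd1c had 12.2, 13.6, 12.7 and 15.9 CPM in the precursor-like and 31.6, 44.7, 19.1 and 45.3 CPM in the neutrophil-like cells, a rise of 1.40 (SE 0.24, adjusted p = 2.571e-08). No library of the later class reached down to the earlier one for either gene, though Jmjd1c varied more than 2-fold between the neutrophil-like samples. Kdm5b (1.58), Kdm4a (1.45) and Kdm3b (0.92) also rose. Against monocyte-like cells, neutrophil-like cells had more Kdm2a (1.84, SE 0.24, adjusted p = 8.084e-10; 0.84 with library totals) and Jmjd1c (1.66, SE 0.24, adjusted p = 8.496e-09; 0.65 with library totals). Kdm2b went the other way. It had 26.7, 27.1, 30.8 and 28.0 CPM in GMP-like and 6.10, 11.4, 8.26 and 4.65 CPM in neutrophil precursor-like cells, a fall of 1.09 (SE 0.19, adjusted p = 2.906e-07). In neutrophil-like cells its level rested on 13 UMIs, and its difference from monocyte-like cells was -0.92 (SE 0.40, adjusted p = 0.03929), a call lost in 7 of the other settings (adjusted p up to 0.2414). In erythroid progenitor-like cells Kdm2b was 35.6, 34.6, 34.7 and 38.7 CPM, above all 4 libraries of HSPC-like cells, with a rise of 0.49 (SE 0.11, adjusted p = 3.204e-05). Kdm6b and Kdm2a fell in the same comparison, by 0.91 (SE 0.14, adjusted p = 3.589e-09) and 0.66 (SE 0.15, adjusted p = 2.004e-05).

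The remaining JmjC proteins, Phf2, Jmjd6 and Jmjd8, had different courses. Jmjd6, reported to hydroxylate lysines of splicing factors, had 32.8, 28.8, 32.5 and 31.1 CPM in HSPC-like and 31.8, 31.6, 30.7 and 30.1 CPM in GMP-like cells. It was called higher in GMP-like cells with TMM (0.32, adjusted p = 0.0001232) but not with library totals (-0.02, adjusted p = 0.8462). It had 14.8, 19.6, 30.5 and 21.3 CPM in neutrophil precursor-like and 12.0, 8.95, 10.6 and 9.45 CPM in neutrophil-like cells, the only fall called among the tested genes in that step (-0.98, SE 0.31, adjusted p = 0.003747). The precursor-like libraries were the more spread of the pair, and the neutrophil-like level rested on 22 UMIs. DESeq2 gave an adjusted p of 0.0718 for this fall, and without Idh1-R132H 1 edgeR gave 0.0513. Over all settings the adjusted p ran from 0.002053 to 0.0718. Jmjd8 fell from 13.6 ± 0.985 CPM in GMP-like to 1.83 ± 0.863 CPM in neutrophil precursor-like cells (-1.94). Phf2, with 7.24 ± 1.08 CPM in HSPC-like and 5.69 ± 0.799 CPM in GMP-like cells, did not pass there on the TMM scale (-0.03) and was called lower with library totals (-0.36, adjusted p = 0.02827).

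Of the 4 enzymes that hydroxylate hypoxia-inducible factor, Egln3 varied most between classes. Egln1 to Egln3 mark the factor's prolines for degradation, and Hif1an hydroxylates an asparagine that blocks its coactivators. Egln3 lies on chr12:54178981-54203860 (minus strand). It had 10.2, 9.12, 10.2 and 11.1 CPM in HSPC-like and 23.4, 21.7, 21.3 and 21.6 CPM in GMP-like cells, a rise of 1.45 (SE 0.10, adjusted p = 3.586e-19; 1.11 with library totals). The Cpa3 Ccl9 cluster was higher still, with 34.3, 27.9, 28.0 and 24.8 CPM, and each of its libraries lay above the GMP-like value of the same mouse. Monocyte-like cells had 1.78, 2.61, 2.34 and 4.13 CPM, a fall from GMP-like cells of 2.97 (SE 0.26, adjusted p = 1.73e-18). In erythroid progenitor-like cells the level was 1.35 ± 0.636 CPM, in neutrophil precursor-like cells 3.94 ± 1.47 CPM and in neutrophil-like cells 13.6 ± 5.23 CPM. Egln3 was thus highest in the Cpa3 Ccl9 cluster and GMP-like cells, and low in monocyte-like and erythroid progenitor-like cells. Egln2 had its highest level in mature B-like cells, with 51.7, 42.1, 48.2 and 64.2 CPM, and lay between 27.7 and 37.3 CPM on average in HSPC-like, GMP-like, monocyte-like and erythroid progenitor-like cells. Egln1 rose from 3.88 ± 1.32 to 6 ± 0.699 CPM between HSPC-like and GMP-like cells (0.97), and Hif1an fell from 7.45 ± 1.16 to 3.29 ± 0.884 CPM (-0.85).

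The collagen-modifying enzymes hydroxylate prolines and lysines of procollagen in the endoplasmic reticulum. Among these 5 genes, Plod3, P4ha1, Plod1 and Plod2 had large differences between classes, Plod1 and Plod2 at low counts. The remaining gene, P4ha2, passed no filter. Plod3, a lysyl hydroxylase that can also glycosylate hydroxylysine, lies on chr5:136987019-136996648 (plus strand). It had 9.11, 10.4, 13.4 and 8.02 CPM in HSPC-like and 52.7, 59.5, 55.8 and 55.4 CPM in GMP-like cells, the largest rise among the genes tested in that comparison (2.78, SE 0.087, adjusted p = 5.523e-34; 2.45 with library totals). Monocyte-like cells had 66.8, 74.7, 77.2 and 73.8 CPM, all above the GMP-like libraries, a rise of 0.36 (SE 0.091, adjusted p = 0.0003156). Neutrophil precursor-like cells had 15.4 ± 2.32 CPM and neutrophil-like cells 24.1, 15.7, 19.1 and 24.6 CPM. Neutrophil-like cells thus lay below monocyte-like cells (-0.78, SE 0.22, adjusted p = 0.001891; -1.78 with library totals). Erythroid progenitor-like cells had 6.39 ± 2.01 CPM. Exons of Plod3 overlap those of Znhit1 on the other strand, and whether the counting used strand is not given in the sources used here. Znhit1 had 68.9 CPM in HSPC-like, 147 in GMP-like, 167 in monocyte-like, 152 in neutrophil precursor-like and 176 in neutrophil-like cells, so it was high in the neutrophil classes where Plod3 was low. P4ha1, a catalytic subunit of procollagen prolyl hydroxylase, had 13.5 ± 1.36 CPM in HSPC-like and 12.8 ± 1.50 in GMP-like cells but 1.57 ± 0.741 CPM in neutrophil precursor-like cells (-2.25, adjusted p = 5.124e-09) and 5.41 ± 2.09 CPM in erythroid progenitor-like cells (-1.19 from HSPC-like cells, adjusted p = 5.903e-07). Between HSPC-like and GMP-like cells P4ha1 was called higher with TMM (0.25, adjusted p = 0.03036) but not with library totals (-0.08, adjusted p = 0.4894). Plod2 had 5.98, 3.84, 4.10 and 4.96 CPM in HSPC-like cells and 0.310, 0.134, 0.346 and 0.214 CPM in GMP-like cells, on 129 and 9 UMIs, and fell by 3.83 on the log2 scale (SE 0.36, adjusted p = 1.903e-14; -4.15 with library totals). It fell by 2.18 from HSPC-like to erythroid progenitor-like cells (adjusted p = 7.248e-06), where 8 UMIs were counted. Plod1 rose from 2.34 ± 0.822 to 4.23 ± 0.729 CPM between HSPC-like and GMP-like cells (1.20, and 0.87 with library totals). It had 7.36 ± 2.06 CPM in monocyte-like cells and 0.229 CPM, on 2 UMIs, in erythroid progenitor-like cells. The other collagen and collagen folding genes (P4hb, Serpinh1, Ppib and others) were called higher for 5 and lower for 4 of 9 tested from HSPC-like to GMP-like cells (4 and 4 with library totals), and all 6 tested fell into neutrophil precursor-like cells (median -1.36, against -0.03 for all genes).

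Plod3, Egln3 and Phyh are the 3 genes that the naming rule gives for the rise from HSPC-like to GMP-like cells. Their promoters (RefSeq, GRCm38.p6, 250 bases before to 50 after the annotated start, 5′ to 3′ on the gene's strand) are shown with matches to ACGTG, the core of the element bound by hypoxia-inducible factor, the substrate of the EGLN enzymes. Capitals mark ACGTG on either strand. Plod3 is at chr5:136986769-136987068 (plus), Egln3 at chr12:54203825-54204124 (minus) and Phyh at chr2:4918746-4919045 (plus).
Plod3: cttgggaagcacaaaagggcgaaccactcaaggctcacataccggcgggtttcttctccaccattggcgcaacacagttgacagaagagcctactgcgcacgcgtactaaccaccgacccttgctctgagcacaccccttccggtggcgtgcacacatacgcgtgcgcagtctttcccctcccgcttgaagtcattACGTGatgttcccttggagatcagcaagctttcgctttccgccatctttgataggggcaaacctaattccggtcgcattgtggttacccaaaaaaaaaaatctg
Egln3: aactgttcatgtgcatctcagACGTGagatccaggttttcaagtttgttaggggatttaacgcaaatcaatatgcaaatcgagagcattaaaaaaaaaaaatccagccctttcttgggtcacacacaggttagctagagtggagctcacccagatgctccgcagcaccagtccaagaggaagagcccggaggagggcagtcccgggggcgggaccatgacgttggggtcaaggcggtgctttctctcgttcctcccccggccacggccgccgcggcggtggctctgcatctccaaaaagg
Phyh: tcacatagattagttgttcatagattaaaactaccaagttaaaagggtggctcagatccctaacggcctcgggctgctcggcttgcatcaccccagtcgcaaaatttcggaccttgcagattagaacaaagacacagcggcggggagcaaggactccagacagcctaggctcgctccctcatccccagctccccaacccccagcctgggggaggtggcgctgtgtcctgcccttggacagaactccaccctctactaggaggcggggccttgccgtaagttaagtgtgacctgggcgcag
Plod3 held the motif once, 54 bases before the start, Egln3 once, 229 bases before it, and Phyh did not hold it. Of the 37 genes, 29 had a promoter in the RefSeq table, in 39 windows, and 28.2% of these windows held ACGTG, against 19.6% of all 32851 windows of this length. AGGAAG, the core bound by PU.1, was in 13 of the 39 windows, against 35.4% of all. A match describes letters only, and promoters of Kdm6b and Asph were not among those used here. The 23-gene list of hypoxia-inducible factor and its targets had 10 genes higher and 8 lower of 21 tested from HSPC-like to GMP-like cells (9 and 11 with library totals), 9 higher and 10 lower of 21 from GMP-like to monocyte-like cells, and 2 higher and 11 lower of 20 from HSPC-like to erythroid progenitor-like cells. From monocyte-like to neutrophil-like cells 12 were higher and none lower of 16 on the TMM scale, but 1 higher and 9 lower with library totals, and Egln3 did not pass the filter there.

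The AlkB family repairs or edits methylated nucleic acids. Alkbh1, which demethylates tRNA, had 60.8, 66.1, 65.6 and 67.7 CPM in erythroid progenitor-like cells, above the 44.2, 45.5, 46.9 and 47.6 CPM of HSPC-like cells in every mouse (0.64, SE 0.087, adjusted p = 1.725e-11). GMP-like cells had 38.6, 36.8, 44.4 and 44.2 CPM. From HSPC-like to GMP-like cells Alkbh1 was called higher with TMM (0.17, adjusted p = 0.01618) and lower with library totals (-0.17, adjusted p = 0.01513). Its direction in that step therefore depends on the scale. Neutrophil precursor-like cells had only 6.54, 2.72, 9.53 and 5.81 CPM, a fall of 1.91 from GMP-like cells (SE 0.18, adjusted p = 4.612e-16). Monocyte-like cells had 16.0, 19.1, 19.5 and 25.4 CPM, a fall of 1.05 from GMP-like cells (SE 0.14, adjusted p = 5.835e-11). In neutrophil-like cells 10 UMIs were counted. The gene lies on chr12:87425840-87444017 (minus strand), and its exons overlap Slirp on the other strand. Slirp had 217 CPM in GMP-like, 57.6 in neutrophil precursor-like and 215 in erythroid progenitor-like cells, so both transcripts were low in the precursor-like cells. Alkbh6 had 26.7, 26.7, 26.6 and 31.1 CPM in GMP-like and 9.16, 7.63, 5.72 and 8.14 CPM in neutrophil precursor-like cells (-0.99, SE 0.18, adjusted p = 8.594e-07). Alkbh2, a DNA repair dioxygenase, went from 10.9 ± 2.19 to 1.58 ± 0.811 CPM (-1.90), and Alkbh8, which modifies the wobble base of tRNA, from 8.07 ± 0.497 to 1.64 ± 0.742 CPM (-1.40).

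The 2 demethylases of N6-methyladenosine in mRNA, Fto and Alkbh5, are given side by side. Fto had 28.2, 26.4, 29.5 and 30.1 CPM in HSPC-like and 11.2, 13.3, 13.1 and 13.6 CPM in GMP-like cells, and fell (-0.83). Alkbh5 had 29.7, 39.1, 35.2 and 31.5 CPM in HSPC-like and 27.3, 33.0, 31.6 and 24.2 CPM in GMP-like cells. It did not pass on the TMM scale (0.11) and was called lower with library totals (-0.22, adjusted p = 0.005729), so its call depends on the scale. From monocyte-like to neutrophil-like cells Fto fell by 1.50 to a level that rested on 6 UMIs, and Alkbh5 did not pass on either scale (0.52, and -0.48 with library totals). The 14 writers and readers of the same mark had 4 genes higher and 5 lower of 14 from HSPC-like to GMP-like cells and 2 higher and 2 lower of 9 from monocyte-like to neutrophil-like cells on the TMM scale, and 0 and 9, and 0 and 7, with library totals. Alkbh3, which repairs alkylated single-stranded DNA and RNA, shares exons on its own strand with Gm27027, so its counts are uncertain. Alkbh7, a mitochondrial member, did not pass from HSPC-like to GMP-like cells with TMM (-0.14, adjusted p = 0.06121). With library totals it was called lower in that pair (-0.47, adjusted p = 6.928e-08). It had 40.7 ± 2.84 CPM in HSPC-like, 29.3 ± 1.71 in GMP-like and 10.5 ± 1.99 in neutrophil precursor-like cells. Alkbh4 had 11.7 ± 0.622, 11.5 ± 1.27 and 10.2 ± 3.26 CPM in the same classes, and its calls of 0.30 and 0.70 on the TMM scale turned to -0.03 and -0.16 with library totals.

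Asph, which hydroxylates aspartate and asparagine in EGF-like domains, was the gene with the largest rise into the erythroid branch. It had 14.8, 16.8, 15.03 and 15.3 CPM in HSPC-like and 41.3, 43.7, 39.0 and 45.9 CPM in erythroid progenitor-like cells, a rise of 1.60 (SE 0.12, adjusted p = 2.88e-29) with no overlap. Basophil and mast progenitor-like cells were at a similar level, 40.6 ± 4.90 CPM. GMP-like cells had 4.44, 3.89, 4.50 and 4.06 CPM, and neutrophil-like cells 1 UMI in all. Monocyte-like cells had 16.9, 13.9, 10.9 and 22.4 CPM, above every GMP-like library (1.91). Asph spans chr4:9448069-9669344 (minus strand) and also makes shorter products without the enzyme domain, which counts summed per gene cannot tell apart. Phyh, which starts the peroxisomal breakdown of phytanic acid, was opposite to Asph in the erythroid branch, with 31.6, 35.4, 36.6 and 36.0 CPM in HSPC-like and 13, 18.6, 17.3 and 10.1 CPM in erythroid progenitor-like cells (-1.13, SE 0.14, adjusted p = 1.406e-13). Phyh, on chr2:4919019-4938730 (plus strand), had 43.2, 47.4, 44.5 and 41.3 CPM in GMP-like cells, a rise from HSPC-like cells of 0.67 (SE 0.066, adjusted p = 1.743e-13; 0.34 with library totals). In neutrophil precursor-like cells it had 27.0, 32.2, 29.9 and 30.6 CPM, below GMP-like cells in every mouse, yet the TMM difference was 0.29 (SE 0.11, adjusted p = 0.01608) and that with library totals -0.56 (adjusted p = 4.807e-06). Its direction in this step therefore depends on the scale. Neutrophil-like cells had 82.7, 85.0, 59.3 and 62.4 CPM, above the precursor-like cells in every mouse (1.31). In the OGFOD family, Ogfod3 fell from 16.6 ± 1.28 CPM in GMP-like to 9.69 ± 3.45 CPM in monocyte-like cells (-0.80, SE 0.20, adjusted p = 0.0003278). Ogfod1, which hydroxylates a proline of a small-subunit ribosomal protein, rose from 2.96 ± 0.837 to 5.22 ± 0.819 CPM between HSPC-like and GMP-like cells (1.16), whereas Ogfod2, with 20.6 ± 0.967 and 23.3 ± 2.15 CPM, was called higher on the TMM scale (0.50) but not with library totals (0.17, adjusted p = 0.06475).

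Between Idh1-R132H and Idh1-WT, none of the 37 genes passed the test in any class. In 14 classes at least 1 gene passed the filter, which gave 333 tests over 36 genes, and the smallest adjusted p was 0.2394. The background was low as well. The share of all genes called was 0.0804% in HSPC-like, 0.483% in GMP-like, 0.211% in monocyte progenitor-like, 0.251% in monocyte-like, 0.406% in neutrophil precursor-like, 0.366% in neutrophil-like and 0.0613% in erythroid progenitor-like cells. It was 0.0723% in megakaryocyte progenitor-like, 0.0765% in lymphoid-primed progenitor-like, 0.171% in mature B-like and 0.552% in dendritic cell-like cells, 0.153% in the Fam64a Psrc1 cluster and 0.288% in the Cpa3 Ccl9 cluster, and 0 in basophil and mast progenitor-like and T and NK-like cells. An unadjusted p under 0.05 was found in 16 of the 333 tests (4.80%), against 7.06% of all 105427 tests, and DESeq2 gave 2 such tests and no call. In GMP-like cells the CPM of the genotypes did not overlap for 6 genes higher and 4 lower in Idh1-R132H of 35, against 18% and 23.3% of all genes. In HSPC-like cells it did not overlap for 5 higher and 2 lower of 36, against 18.7% and 14.4%. The call count stayed 0 without the cells with shared barcodes and, in the classes where a gene of the list was tested, with Xist-carrying cells alone.

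A test that did not pass leaves an interval of differences that the 2 mice a group allow. Of the 333 intervals (95%), 248 lay wholly within a log2 difference of 1 in either direction and 111 within 0.5. In HSPC-like cells 33 of 36 lay within 1, in GMP-like cells 34 of 35, in neutrophil precursor-like cells 12 of 22 and in neutrophil-like cells 4 of 6. Kdm6b in neutrophil-like cells, for instance, had a difference of 0.04 with an interval from -0.42 to 0.50. The class medians of the tested genes lay between -0.20 and 0.16.

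**Figure D4:**
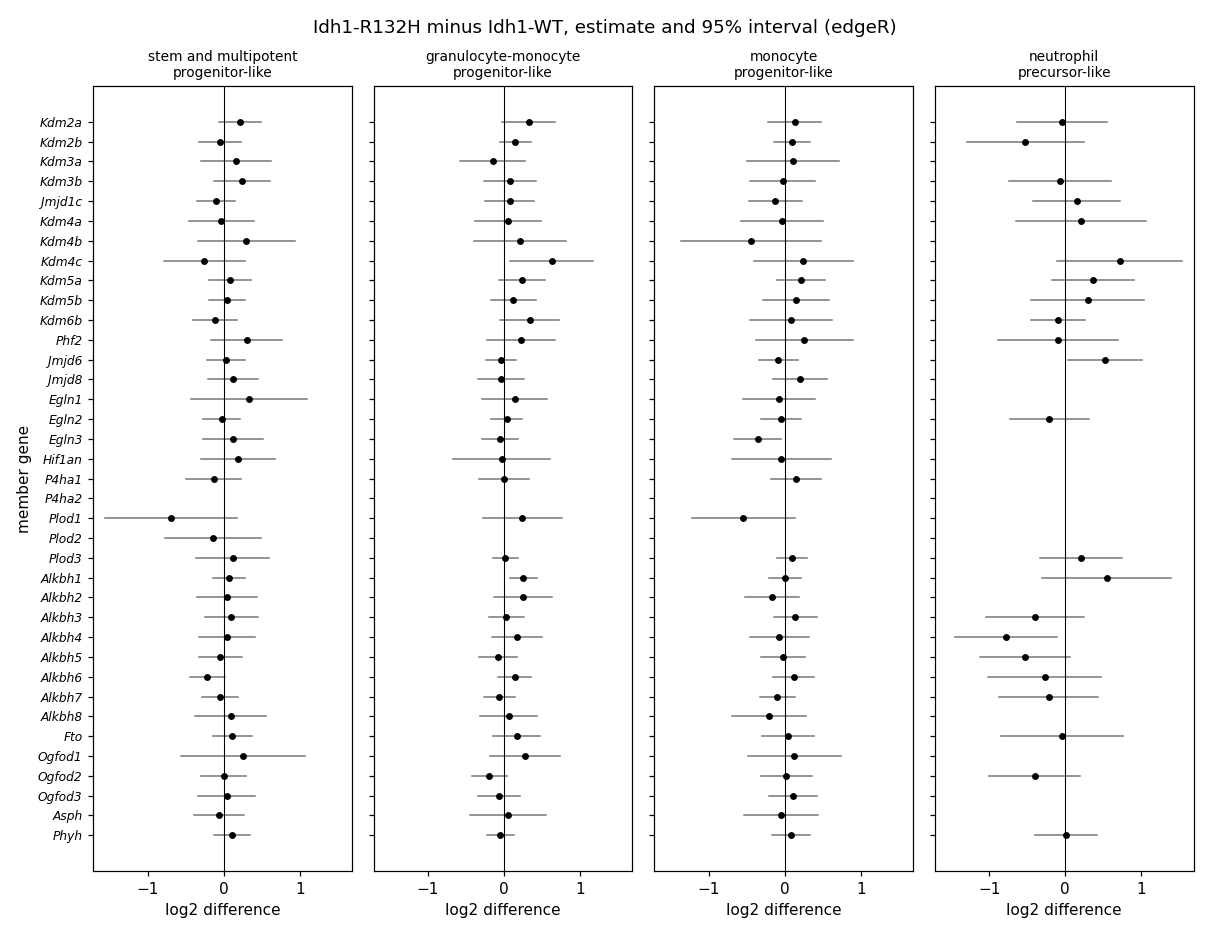
Log2 difference of Idh1-R132H minus Idh1-WT with its 95% interval for the genes tested in 4 classes (x axis, log2 difference on the TMM scale; rows, genes). Most intervals cross 0, and intervals widen from HSPC-like and GMP-like cells (33 of 36 and 34 of 35 within 1 in either direction) to neutrophil precursor-like cells (12 of 22).

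The smallest unadjusted p-values in each class show where the mice came closest to separating. In monocyte-like cells Alkbh3 had 12.5, 7.82, 17.9 and 27.2 CPM, on 14, 9, 23 and 46 UMIs, and a difference of 1.19 (SE 0.35, unadjusted p = 0.001686, adjusted p = 0.2394). The Idh1-R132H values lay above both Idh1-WT values but were unlike each other, and without Idh1-R132H 1 the difference was 1.41 with an adjusted p of 0.03009. Over the other settings this gene did not pass, with adjusted p-values up to 0.9999 (DESeq2). Kdm5a in the same cells had 17.8, 15.6, 24.2 and 24.2 CPM (0.54). In GMP-like cells Alkbh1 had 38.6, 36.8, 44.4 and 44.2 CPM (0.25, SE 0.087, unadjusted p = 0.00822, adjusted p = 0.284) and Kdm4c 2.58, 3.35, 4.84 and 4.06 CPM (0.62). Both were higher in the 2 Idh1-R132H libraries. In HSPC-like cells Alkbh6 had 40.5, 38.6, 33.9 and 34.9 CPM (-0.21) and Plod1 2.45, 3.36, 1.37 and 2.19 CPM (-0.69).

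In monocyte progenitor-like cells Egln3 had 18.3, 18.8, 13.9 and 14.7 CPM (-0.35, adjusted p = 0.4784) and Plod1 3.41, 5.83, 3.05 and 2.91 CPM (-0.54). In neutrophil precursor-like cells Alkbh4 had 12.6, 13.1, 6.35 and 8.52 CPM (-0.77) and Jmjd6 14.8, 19.6, 30.5 and 21.3 CPM (0.52). In neutrophil-like cells Phyh had 82.7, 85.0, 59.3 and 62.4 CPM (-0.48, adjusted p = 0.6807) and Kdm5b 30.1, 22.4, 14.8 and 22.7 CPM (-0.52). The interval of Phyh ran from -0.97 to 0.01. In the Fam64a Psrc1 cluster Kdm3a had 10.0, 11.4, 6.001 and 7.08 CPM (-0.69, adjusted p = 0.3902) and Jmjd6 26.0, 30.1, 20.1 and 21.0 CPM (-0.43). In the Cpa3 Ccl9 cluster Kdm3b had 11.4, 7.25, 17.6 and 12.3 CPM (0.62, adjusted p = 0.3395), and Egln3 had a difference of -0.25 from the values given above. Both genes of the Fam64a Psrc1 cluster were lower in the 2 Idh1-R132H libraries.

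Of the remaining classes, the basophil and mast progenitor-like, lymphoid-primed progenitor-like, mature B-like and dendritic cell-like cells had few UMIs per gene. In basophil and mast progenitor-like cells Phyh had 29.7, 25.6, 7.07 and 9.14 CPM on 18, 10, 3 and 6 UMIs (-1.73, SE 0.51, unadjusted p = 0.005589, adjusted p = 0.9783), and Alkbh4 14.9, 23.1, 47.2 and 21.3 CPM (0.80). In megakaryocyte progenitor-like cells Phyh had 26.4, 29.6, 14.9 and 21.5 CPM (-0.55) and Kdm3a 4.31, 10.3, 10.5 and 14.3 CPM (0.89). Phyh was lower in both Idh1-R132H mice in each of these classes. Over the 12 classes where Phyh was tested, its difference was lower in 8 and higher in 4, and none was called. In HSPC-like cells both Idh1-R132H values of Phyh lay above both Idh1-WT values. In the basophil and mast progenitor-like cells the summed level of the 8 eosinophil markers was 6407, 2904, 191 and 1783 CPM, also lower in both Idh1-R132H mice, and its part in the Phyh values was not tested. In erythroid progenitor-like cells Alkbh3 had 18.4, 26.1, 24.1 and 33.7 CPM (0.44) and Plod3 7.65, 8.52, 4.33 and 5.05 CPM (-0.76). In lymphoid-primed progenitor-like cells P4ha1 had 21.7, 32.2, 20.1 and 5.87 CPM (-1.20) and Kdm6b 18.1, 13.3, 20.1 and 34.0 CPM (0.89). In mature B-like cells Alkbh7 had 27.6, 35.6, 65.5 and 57.1 CPM on 8, 11, 19 and 16 UMIs (0.91, adjusted p = 0.6083), and Kdm2a 48.3, 48.6, 34.5 and 17.8 CPM (-0.90). In dendritic cell-like cells Alkbh5 (0.50) and Alkbh1 (-0.09) were the leading 2 of 3 genes tested, with intervals from -0.54 to 1.54 and from -0.9975 to 0.81.

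The genotype difference itself was compared between classes in 3 pairs. None of 93 tests passed, and 6 had an unadjusted p under 0.05 (6.45%, against 6.26% of all). The background of all genes called was 0.129% for HSPC-like with GMP-like cells, 0.11% for GMP-like with neutrophil precursor-like cells and 0.0966% for neutrophil precursor-like with neutrophil-like cells. The smallest adjusted p belonged to Alkbh6, whose genotype difference was 0.35 higher in GMP-like than in HSPC-like cells (SE 0.14, adjusted p = 0.5523).

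Idh1 itself had 81.6, 87.3, 73.5 and 68.2 CPM in GMP-like cells (-0.23, SE 0.069, adjusted p = 0.1809), and the 3′ tags do not cover the altered codon. In the lists around the 37 genes, no genotype call was made for the 23 genes that supply or use 2-oxoglutarate (257 tests over classes), the 2 FAD-dependent lysine demethylases, which remove histone methyl groups without 2-oxoglutarate (16 tests), or the 28 histone lysine methyltransferases, which place the marks (298 tests). None was made for the collagen genes (86 tests), the writers and readers of N6-methyladenosine (140 tests) or the ribosomal and translation partners of the oxygenases (89 tests). Among hypoxia-inducible factor and its targets, Eno1, a glycolytic enzyme, was lower in Idh1-R132H in GMP-like cells (714, 696, 612 and 608 CPM; -0.19, adjusted p = 0.02884), 1 call in 234 tests. The immediate early list had 5 calls in 168 tests, all lower in Idh1-R132H, among them Dusp1 in GMP-like cells (31.2, 36.97, 21.6 and 18.4 CPM; -0.74, adjusted p = 0.0008968). Xist and the Y-linked genes had 4 calls in each direction in 46 tests. The part of cell sex in the genotype values above was not tested beyond the count of 0 in Xist-carrying cells alone.

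Between classes, the histone lysine methyltransferases were called higher for 8 and lower for 13 of 28 from HSPC-like to GMP-like cells (3 and 18 with library totals). From GMP-like to neutrophil precursor-like cells 11 were called higher and 4 lower of 28 on the TMM scale, and 5 and 15 with library totals. From neutrophil precursor-like to neutrophil-like cells 8 rose and 3 fell of 17 on both scales. The genes that supply or use 2-oxoglutarate were called higher for 15 and lower for 4 of 22 from HSPC-like to GMP-like cells (median 0.56; 9 and 6 with library totals). Into neutrophil precursor-like cells 4 were called higher and 12 lower of 21 (median -0.42; 0 and 18 with library totals). The ribosomal and translation partners of the oxygenases fell for 5 of 6 into neutrophil precursor-like cells on the TMM scale and for 6 of 6 with library totals.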

How the data were processed

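Gene counts (UMIs per gene and barcode) were deposited by the authors as raw matrices of all barcodes, from 10x 3′ v2 libraries. The submitters' processing notes name Cell Ranger 4.0.0, Seurat and the build GRCm38 (mm10). The deposited counts were checked to be whole numbers. A barcode was taken as a cell with 500 or more UMIs, 200 or more genes and a mitochondrial share of 10% or less. Cells were clustered in scanpy 1.11.5 (2000 variable genes without the 37 genes, Xist and Y-linked genes, 30 components, 15 neighbours, Leiden resolution 1), giving 25 clusters, of which 18 were named from 19 marker sets. Clusters stayed unnamed with a relative UMI count under 0.1, a mean doublet score over 0.15 or few own markers among their 10 leading genes. Both limits were chosen with the clusters in view. The unnamed small clusters held 902 cells (5.54%). The doublet caller marked 111 cells (0.682%), and none was removed. Classes set cell by cell from marker scores matched for 60.8% of HSPC-like and 98.8% of GMP-like cells. They matched for 57.3% of megakaryocyte progenitor-like and 62.0% of monocyte progenitor-like cells. In Idh1-WT 2 the HSPC-like class is mostly another of its 2 clusters than in the other libraries.

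Raw counts were added up within each library and class (20 or more cells in each library) and tested over all genes with edgeR 4.0.16 (quasi-likelihood, TMM, filterByExpr, robust) in R 4.3.3, with Benjamini-Hochberg adjustment at 0.05. Comparisons of classes and of the genotype effect between classes had the library as a block. DESeq2 1.42.0 and the other alternatives are under the closing section. The fits were tested on simulated data. Values per library are given for the 2 genes with the smallest unadjusted p in each class, the 3 largest called rises and falls per pair of classes at a mean log2 CPM of 4 or more, and the gene with the highest level in each role group; other genes were named after their values were seen. The 37 genes, the lists and the marker sets were chosen with earlier results of these data known. The symbols Lepre1, Leprel1 and Leprel2 of the collagen list were not among the features, which leaves 15 of its 18. Gene positions and overlaps are from GENCODE vM21, in which 13 of the 37 genes overlap exons on the other strand and 1 on its own.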

Additional observations from a re-analysis of the deposited data

How the results depend on the processing

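The counts of called genes of the list were recomputed with other size factors, DESeq2, no filter on low counts, stricter cell filters, classes set cell by cell, high doublet scores removed, equal cell numbers, free RNA subtracted, Xist-carrying cells alone and each library left out, and, chosen after seeing the data, with shared barcodes removed. Of these counts, 357 stayed within 1.5 times the value reported. This rule compares totals only and is a weak check. All reported counts for genotype, and for the genotype effect between classes, are 0, so those that stayed compare 0 with 0. A change of direction does not show in a total. From GMP-like to neutrophil precursor-like cells, 25 calls became 24 with library totals, while 12 higher and 13 lower became 2 and 22. From monocyte-like to neutrophil-like cells 18 genes were called with no filter on low counts, against 11, since more genes were then tested. In monocyte-like cells, leaving out 1 library gave 0 to 1 genotype calls, the 1 being Alkbh3 without Idh1-R132H 1. Phyh reversed from GMP-like to neutrophil precursor-like cells with library totals (-0.56) and lost its call in 5 other settings, and Kdm2b from monocyte-like to neutrophil-like cells lost it in 7. The cause was not tested. Over all genes, genotype calls moved widely with the setting: from 0 to 150 in HSPC-like cells (9 reported), 28 to 143 in GMP-like (50), 11 to 202 in monocyte progenitor-like (21), 2 to 55 in monocyte-like (18), 1 to 76 in neutrophil precursor-like (28) and 0 to 33 in neutrophil-like cells (12). The replicate numbers share only a number, since deviations of same-numbered libraries correlated between -0.107 and 0.0769, and with the replicate block 0 genes of the list were called in each of the 14 classes. Classes set cell by cell gave no value for the Fam64a Psrc1 and Cpa3 Ccl9 clusters. With Xist-carrying cells alone, no gene of the list was tested in neutrophil-like, mature B-like, dendritic cell-like and T and NK-like cells. Counting depth limits the small classes most: the 37 genes together had 401 UMIs in T and NK-like cells, where none was tested, 690 in dendritic cell-like cells, 782 in mature B-like cells and 1066 in neutrophil-like cells, where 3, 9 and 6 were tested.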
